A study of Mus musculus with 5 samples.

Results

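A set of 40 genes that macrophages are known for were followed through 5 libraries of sorted regulatory T cells (Tregs), among 49861 gene entries listed in all. The genes were given as a list of 40 symbols, picked with earlier results of these data known, so their levels and ratios below are descriptions. All 40 matched a mouse gene ID in the deposited tables. Of these genes, 29 are largely restricted to macrophages and other myeloid cells, and 11 are also known from lymphoid, endothelial, stromal or activated T cells.

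The Tregs came from C57BL/6 mice that all carried Foxp3Cre, in which the recombinase Cre is made by cells that use Foxp3, the master regulator gene of Tregs. Each group had 1 library. A 10-month adipose library, labelled Med23 KO, came from mice with the genotype Med23fl/fl;Foxp3Cre. Macrophages and other cells that do not use Foxp3 keep Med23, a Mediator subunit gene, in these mice. The library labelled Med23 KO was compared with a 10-month Foxp3Cre adipose library. An obese 4-month Foxp3Cre adipose library, titled HFD, was set against a 4-month Foxp3Cre adipose library whose labels do not mention obesity and which is called lean for that reason alone. The last library held lymph node (LN) Tregs from 4-month Foxp3Cre mice. How cells were gated, and whether mice were pooled, is not stated in the labels.

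Macrophages of adipose tissue take up dying cells and lipid, present antigen and secrete factors that act on neighbouring cells. They depend on signals through the receptor Csf1r and on the transcription factor PU.1, the product of Spi1. They recognise antibody-coated particles through Fc receptors, which signal through small adaptor proteins, and they make most of the complement component C1q. Tregs are T cells and are not known to use most of these genes, so a count for such a gene in a Treg library can come from macrophages carried through the sort, from RNA released by other cells or from the Tregs themselves. These sources cannot be told apart in bulk libraries, and neither can fewer cells of a type and less RNA per cell.

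The libraries rested on 4595046 reads (labelled Med23 KO), 9650769 (10-month Foxp3Cre), 7496496 (obese adipose), 8540594 (lean adipose) and 9694474 (LN). The authors deposited scaled read counts, in which 1 read has a fixed worth in each library. All 16 T cell and Treg genes checked, Foxp3 and Cd3e among them, were listed at 1 or more in every library, and their sum lay between 9111 and 14069 CPM (counts scaled so that each library has the same total). With 1 library per group the spread between mice is unknown, and no test between conditions exists. The 95% intervals in parentheses are exact and cover counting error only. Both 4-month adipose libraries also stand apart from the other libraries in ways the groups do not name. Gapdh, a housekeeping gene of glycolysis, had 10.1 scaled counts in obese and 1.002 in lean adipose Tregs, against 492 to 1028 elsewhere. Xist, which silences one X chromosome in females, was at 3.39 or lower in these libraries and at 239 or higher elsewhere. Ddx3y, a Y-linked gene, had 529 scaled counts in obese and 532 in lean adipose Tregs, was listed at 0 in LN and had no value in the 10-month table. Each comparison of obese or lean adipose with LN is thus also one between libraries that differ in these sex-linked genes. Because Gapdh, a gene that all cells use, is near 0 in both, a value of 0 can be a failed estimate, and genes are only said to be listed at 0. Med23, the targeted gene, went against the knockout label, at 13.9 scaled counts in the library so labelled and 7.02 in 10-month Foxp3Cre, but gene-level counts cannot show whether the floxed exons are gone.

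Promoters of members that stood high in adipose libraries are shown because PU.1 is known to bind GAGGAA-containing sites, and because these genes did not keep the same proportions between libraries. The reference table of promoters (RefSeq, build GRCm38.p6, from 250 bases before to 50 after the gene start) held 29 of the 40 members. Adgre1, Csf1r, C1qa, Cd14, Clec4n, Clec10a, Msr1, Sirpa, Spi1, Tyrobp and Lyve1 had no entry. GAGGAA or its complement TTCCTC was found in at least 1 window of 19 of these 29 genes (65.5%), against 8446 of all 27025 genes with a window (31.3%). Each match is a description of letters and not a bound site. The windows below are written 5′ to 3′ on the gene's strand, with the GAGGAA and TTCCTC matches in capitals. They lie at chr2:14229164-14229463 (plus strand) for Mrc1, chr4:136886151-136886450 (minus strand) for C1qb, chr4:136892865-136893164 (minus strand) for C1qc and chr16:48842359-48842658 (plus strand) for Retnla.
Mrc1: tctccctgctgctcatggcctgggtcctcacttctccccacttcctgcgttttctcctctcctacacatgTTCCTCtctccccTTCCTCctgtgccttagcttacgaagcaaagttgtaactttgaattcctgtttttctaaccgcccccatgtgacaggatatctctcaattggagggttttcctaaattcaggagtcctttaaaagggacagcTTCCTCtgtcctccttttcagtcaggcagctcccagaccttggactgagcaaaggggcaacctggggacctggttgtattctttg
C1qb: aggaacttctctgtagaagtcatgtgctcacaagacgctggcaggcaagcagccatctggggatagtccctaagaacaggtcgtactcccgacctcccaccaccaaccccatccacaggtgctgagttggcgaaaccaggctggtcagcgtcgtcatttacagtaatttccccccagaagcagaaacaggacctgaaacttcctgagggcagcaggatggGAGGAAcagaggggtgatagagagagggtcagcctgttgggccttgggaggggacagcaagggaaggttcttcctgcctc
C1qc: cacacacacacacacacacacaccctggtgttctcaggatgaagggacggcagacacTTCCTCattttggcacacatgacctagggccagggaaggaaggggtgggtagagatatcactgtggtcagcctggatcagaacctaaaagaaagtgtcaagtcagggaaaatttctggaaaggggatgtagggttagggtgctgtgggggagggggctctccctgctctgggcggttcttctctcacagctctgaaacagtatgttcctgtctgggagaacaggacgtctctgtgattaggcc
Retnla: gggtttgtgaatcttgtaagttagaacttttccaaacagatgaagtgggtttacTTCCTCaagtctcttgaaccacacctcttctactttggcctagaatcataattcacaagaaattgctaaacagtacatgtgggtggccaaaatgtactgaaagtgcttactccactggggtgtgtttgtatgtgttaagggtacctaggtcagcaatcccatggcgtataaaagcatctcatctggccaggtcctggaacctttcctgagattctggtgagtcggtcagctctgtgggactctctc
Mrc1, the gene of the mannose receptor, had 3 matches, which began 180, 167 and 35 bases before its start. C1qb, C1qc and Retnla had 1 match each, which began 30, 193 and 196 bases before their starts.

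The 40 genes together took 0.0751% of the reads of the library labelled Med23 KO (0.0727 to 0.0777), 0.177% of the 10-month Foxp3Cre library (0.175 to 0.180), 1.10% of the obese adipose library (1.10 to 1.11), 0.336% of the lean adipose library (0.332 to 0.340) and 0.0745% of the LN library (0.0728 to 0.0762). The obese library had the most, and the library labelled Med23 KO and the LN library had nearly the same sum. The 29 restricted genes alone took 0.0414%, 0.0772%, 0.746%, 0.232% and 0.00603%, in the same order, so these 2 low libraries differed in them. Set against the summed T cell and Treg genes of the same library, the 40 genes stood at a ratio of 0.0638 in the library labelled Med23 KO, 0.126 in 10-month Foxp3Cre, 1.06 in obese adipose, 0.369 in lean adipose and 0.0574 in LN Tregs. That sum hides differences between its 16 genes. In lean adipose against LN 3 of them were higher by 2-fold or more and 7 lower, where 37.6% and 32.1% of all genes measured were. In obese adipose against LN 2 were higher and 5 lower, where 41.8% and 23.7% of all genes were.

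All 40 genes were listed at 1 scaled count or more in obese adipose Tregs. The number was 14 in the library labelled Med23 KO, 29 in 10-month Foxp3Cre, 31 in lean adipose and 11 in LN. Over all genes the obese library also listed the most at 1 or more, 13632. That number was 10784 in the library labelled Med23 KO, 11592 in 10-month Foxp3Cre, 11411 in lean adipose and 10666 in LN. In CPM, 37 of the 40 were highest in the obese library among the adipose libraries, with a gene without a value counted as 0. The share of all genes highest there was not computed, so this count is no result about the 40 genes. The exceptions were Lgals3, highest in 10-month Foxp3Cre, and Clec4n and Retnla, highest in lean adipose. Fcgr1, Fcgr4, Igsf6 and Lyve1 were above 0 in no library but the obese one. Of these, Fcgr1 and Igsf6 had no value in the 10-month and lean adipose libraries, and Lyve1 had none in the 10-month libraries. Only Fcgr4 was listed at 0 in every other library.

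**Figure D1:**
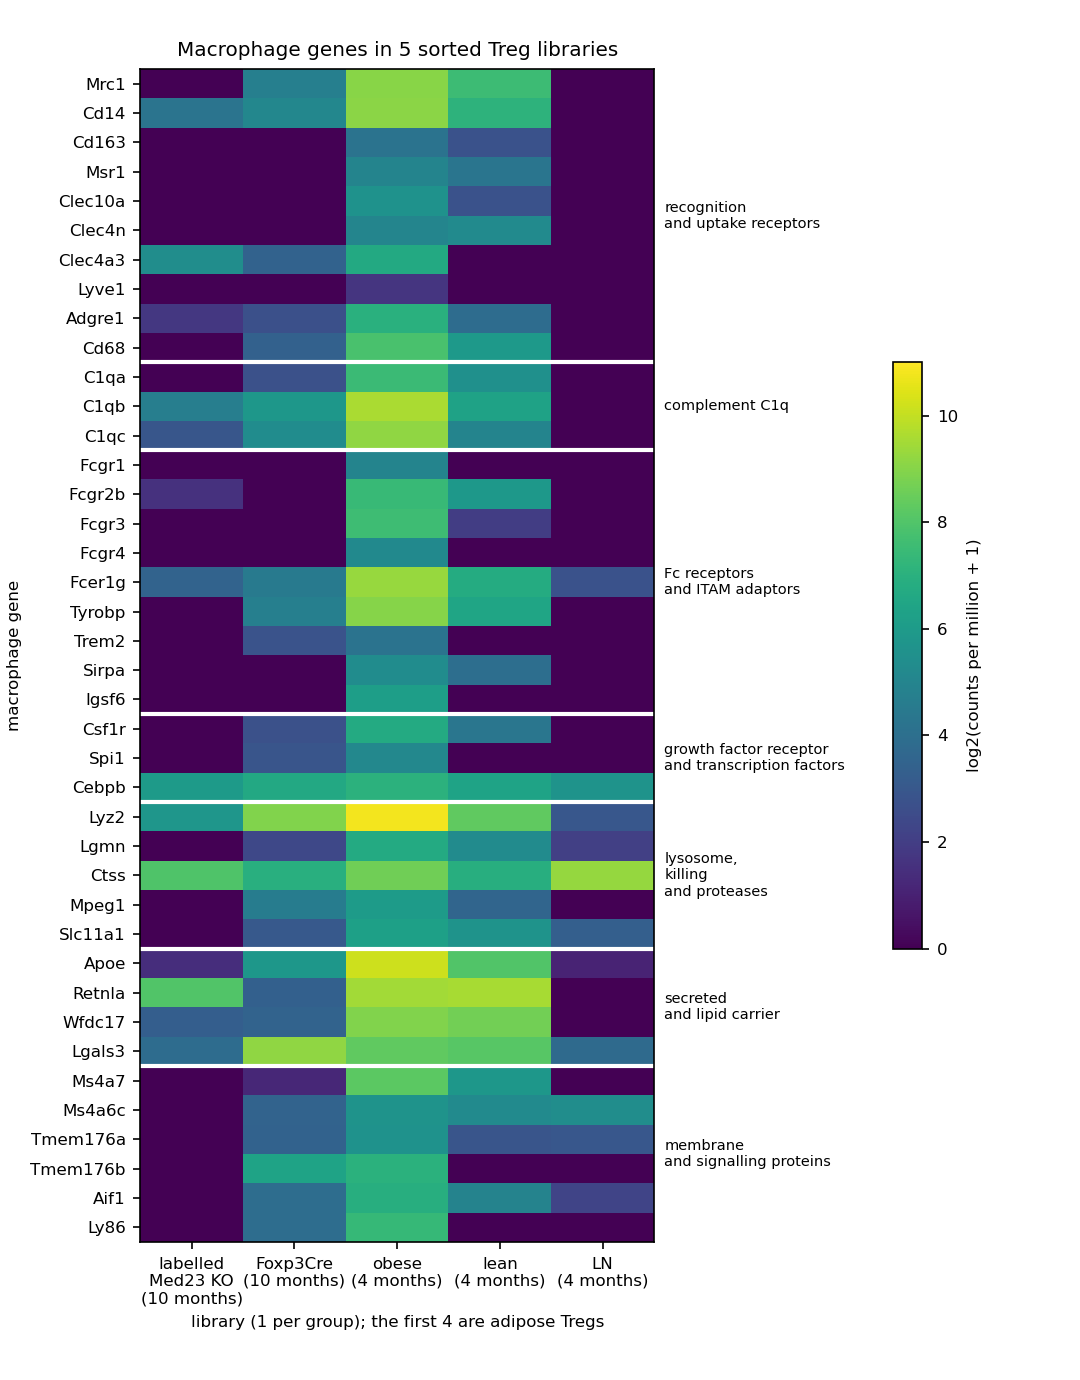
Level of each of the 40 macrophage genes (rows, grouped by role) in the 5 Treg libraries (columns), as log2(CPM + 1), with a gene listed at 0 or without a value drawn at 0. The obese column has all 40 genes above 0, the LN column has 11, and the LN column is brightest at Ctss (605 CPM).

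Recognition and uptake receptors were listed at 0 in LN wherever they had a value there, and all were above 0 in obese adipose Tregs. Mrc1 had 0 CPM in the library labelled Med23 KO, 25.5 in 10-month Foxp3Cre, 526 in obese adipose, 184 in lean adipose and 0 in LN Tregs. Cd14, a co-receptor for bacterial lipopolysaccharide, had 17.6, 32.7, 548, 137 and 0 CPM in the same libraries. Adgre1, which encodes the macrophage surface marker F4/80, had 2.39, 5.39, 126, 13.7 and 0 CPM. All 3 genes were highest in the obese library and listed at 0 in LN. Cd68, a lysosomal membrane protein gene, followed the same order, with 229.6 CPM in obese adipose, 58.5 in lean adipose and 9.74 in 10-month Foxp3Cre Tregs, and was listed at 0 in the library labelled Med23 KO as well as in LN. The scavenger receptor genes Cd163 and Msr1 and the lectin genes Clec10a and Clec4n had values in 4-month adipose Tregs only, since the 10-month table gives none for them. They lay between 17.5 and 47.4 CPM in obese and between 5.74 and 37.0 CPM in lean adipose Tregs. Clec4a3, another C-type lectin gene, was at 41.3 CPM in the library labelled Med23 KO, 9.84 in 10-month Foxp3Cre and 100.4 in obese adipose Tregs, with no value in the lean table. Lyve1, a hyaluronan receptor gene of lymphatic endothelium and some tissue macrophages, had 2.27 CPM in the obese library and was listed at 0 in lean adipose and LN.

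The C1q genes encode the 3 chains of the molecule that starts the classical complement pathway. C1qa had 0 CPM in the library labelled Med23 KO, 5.70 in 10-month Foxp3Cre, 178 in obese adipose, 44.3 in lean adipose and 0 in LN Tregs. C1qb had 25.0, 56.3, 785, 80.3 and 0 CPM, and C1qc had 6.75, 39.997, 580.3, 30.1 and 0 CPM, in the same libraries. The chains were therefore highest together in obese adipose Tregs and listed at 0 together in LN. Per kilobase of exon, C1qa, C1qb and C1qc stood at 171, 721 and 300.5 CPM in obese adipose and at 42.6, 73.8 and 15.6 CPM in lean adipose Tregs. On that scale C1qc was above C1qa in the obese library and below it in the lean one.

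Among the receptors for the constant part of IgG, Fcgr2b is inhibitory, and Fcgr1, Fcgr3 and Fcgr4 are activating. Fcgr3 had 191 CPM in obese and 3.04 CPM in lean adipose Tregs, was listed at 0 in LN and had no value in the 10-month table. Fcgr2b had 1.96 CPM in the library labelled Med23 KO, 0 in 10-month Foxp3Cre, 168 in obese adipose, 56.9 in lean adipose and 0 in LN Tregs. Fcgr1 and Fcgr4 had 30.5 and 36.7 CPM in obese adipose Tregs. The reads of Fcgr3 and Fcgr2b may be partly exchanged, since 9.58% of the 50-base words in the transcripts of Fcgr3 also occur in those of Fcgr2b. Fcer1g, the shared signalling chain of activating Fc receptors, had 10.4 CPM in the library labelled Med23 KO, 22.1 in 10-month Foxp3Cre, 625 in obese adipose, 109 in lean adipose and 5.88 in LN Tregs. Tyrobp, which encodes the adaptor DAP12, had 0, 26.2, 513, 86.6 and 0 CPM in these libraries. Both adaptors were highest in the obese library, and Fcer1g alone was above 0 in all 5 libraries. Trem2, a lipid-sensing receptor gene that signals through DAP12, had 6.11 CPM in 10-month Foxp3Cre and 17.2 CPM in obese adipose Tregs, with no value in the lean table. Sirpa, which encodes the receptor for the signal CD47, had 39.9 CPM in obese and 14.5 CPM in lean adipose Tregs. The immunoglobulin superfamily gene Igsf6 had 71.2 CPM in the obese library. Igsf6 and Fcgr1 had no value in the 10-month and lean adipose libraries.

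Among the regulators, Csf1r and Spi1 were listed at 0 in the library labelled Med23 KO as well as in LN, while Cebpb had a value in each. Csf1r, the receptor for the growth factors CSF1 and IL-34, had 0 CPM in the library labelled Med23 KO, 5.70 in 10-month Foxp3Cre, 106 in obese adipose, 18.7 in lean adipose and 0 in LN Tregs. Spi1 had 0, 6.42, 33.7, 0 and 0 CPM. Cebpb, a transcription factor gene that many cell types use, had 61.8, 100.1, 135, 82.0 and 49.8 CPM and so varied least among the 3. Overlaps limit the reading of these genes, as 14.3% of the 50-base words of Csf1r also occur in transcripts of Hmgxb3 and 18.1% of those of Cebpb in transcripts of Tmem189.

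Genes of the lysosome and of killing did not share an order. Lyz2, the macrophage lysozyme gene, had 53.3 CPM in the library labelled Med23 KO, 477 in 10-month Foxp3Cre, 1784 in obese adipose, 319.9 in lean adipose and 7.01 in LN Tregs, and 15.4% of its 50-base words occur in Lyz1. Ctss, the gene of the protease cathepsin S, had 248, 122, 394, 119.8 and 605 CPM. Ctss was thus highest in LN Tregs, where it made up 81.2% of the summed value of the 40 genes. Mpeg1, which encodes the pore-forming protein perforin-2, had 23.9 CPM in 10-month Foxp3Cre, 65.1 in obese adipose and 10.9 in lean adipose Tregs, and was listed at 0 in the library labelled Med23 KO as well as in LN. Lgmn, a lysosomal protease gene, and Slc11a1, a metal transporter gene of phagosomes, were highest in obese adipose Tregs, at 103 and 75.8 CPM, and were listed at 0 in the library labelled Med23 KO.

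Secreted products differed widely between libraries. Retnla, a gene that IL-4 and IL-13 induce in macrophages, had 259 CPM in the library labelled Med23 KO, 9.33 in 10-month Foxp3Cre, 701 in obese adipose, 759 in lean adipose and 0 in LN Tregs. Wfdc17, which encodes a secreted protein of the WAP family, had 8.71, 10.4, 483, 404 and 0 CPM. Both were alike in the 4-month adipose libraries, but Retnla alone was high in the library labelled Med23 KO. Apoe, a lipid carrier gene, had 1.74, 56.4, 1145, 259 and 1.13 CPM in these libraries. Lgals3, the gene of the lectin galectin-3, had 13.7, 577, 316, 285 and 12.997 CPM. Lgals3 was close to its LN level in the library labelled Med23 KO and highest in 10-month Foxp3Cre.

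The remaining genes encode membrane and signalling proteins. Ms4a7, of the MS4A family, had 0 CPM in the library labelled Med23 KO, 1.35 in 10-month Foxp3Cre, 298 in obese adipose, 55.4 in lean adipose and 0 in LN Tregs. Its relative Ms4a6c had 0, 10.5, 48.8, 37.2 and 40.5 CPM. Ms4a6c was nearly level between 4-month adipose and LN Tregs, but 51.4% of its 50-base words occur in transcripts of other genes, so its counts are uncertain. Tmem176b and Tmem176a, a neighbouring pair of membrane protein genes, had 81.3 and 9.84 CPM in 10-month Foxp3Cre and 128 and 47.6 CPM in obese adipose Tregs. In lean adipose Tregs Tmem176b was listed at 0 and Tmem176a had 6.44 CPM. Aif1, which encodes the calcium-binding protein IBA1, had 117 CPM in obese adipose, 28.9 in lean adipose and 14.1 in 10-month Foxp3Cre Tregs, with 3.71 CPM in LN. Ly86, which encodes the MD-1 protein, had 166 CPM in obese adipose and 14.3 in 10-month Foxp3Cre Tregs.

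In LN Tregs 29 of the 40 genes had no value above 0. Values under 1 scaled count are listed as 0, but the authors' deposited tables give fold changes that were computed from the values before that step, so the reads behind a listed 0 can be worked out. For 27 of the 29 genes these fold changes imply no read in 9694474. Spi1 had 3 reads, and Lyve1 could not be worked out. A fold against no read is given below as a lower bound, computed with 3 reads in place of 0.

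Lean adipose against LN Tregs asked what sets Tregs of fat apart from those of lymphoid tissue. Macrophage genes stood far above LN in lean adipose Tregs. Of the 40 genes, 31 passed the filter of 1 scaled count in either library. Of these, 27 were higher in lean adipose by 2-fold or more, and 1, Ctss, was lower by as much. Over all 13541 genes measured, 37.6% were higher by 2-fold or more and 32.1% lower. The median log2 ratio was 4.22 for the 31 genes and 0.14 for all genes, a value that depends on the 1 added to each count before the ratio. Among the 11 genes above 0 in both libraries the median fold was 7.06. The rule that chose the list used these values, and 20 of the 31 genes passed only through lean adipose, so the count is no support for a difference. Retnla had 722 scaled counts in lean adipose and 0 in LN Tregs and was at least 2222-fold higher. Wfdc17 (384 and 0) was at least 1183-fold higher, Mrc1 (175 and 0) at least 539-fold higher and Cd14 (131 and 0) at least 402-fold higher. Genes with LN reads had smaller ratios. Apoe was 207-fold higher (116 to 416), Lyz2 41.3-fold higher (32.5 to 53.4), Lgals3 19.9-fold higher (16.6 to 23.99) and Fcer1g 16.7-fold higher (12.8 to 22.3). Ctss had 114 scaled counts in lean adipose and 635 in LN Tregs, a ratio of 0.180 (0.168 to 0.192), and Ms4a6c stood at a ratio of 0.832 (0.716 to 0.967). The summed value was 3196 in lean adipose and 782 in LN Tregs, 4.09-fold higher, and 20.9-fold higher without Ctss.

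In obese adipose against LN Tregs all 40 genes passed the filter. Of these, 38 were higher in obese adipose by 2-fold or more, and the other 2 were within 2-fold. Over all 14713 genes measured, 41.8% were higher by that much and 23.7% lower, and 29 of the 40 genes had no LN value above 0. The median log2 ratio was 6.22 for the 40 genes and 0.44 for all genes, and the median fold among the 11 genes above 0 in both libraries was 21.6. C1qb had 739 scaled counts in obese adipose and 0 in LN Tregs and was at least 2253-fold higher. Retnla (661 and 0) was at least 2014-fold higher, C1qc (546 and 0) at least 1666-fold higher and Cd14 (516 and 0) at least 1572-fold higher. Apoe was 897-fold higher (501 to 1797), Lyz2 226-fold higher (178 to 291) and Fcer1g 94.5-fold higher (72.8 to 125). The exceptions were Ctss, with 371 scaled counts in obese adipose and 641 in LN Tregs (ratio 0.578, 0.553 to 0.605), and Ms4a6c, with 46.0 and 43.0 (ratio 1.07, 0.925 to 1.24). The summed value was 13.2-fold higher in obese adipose (12.9 to 13.5), and 67.5-fold higher without Ctss. Because lean and obese adipose were set against the same LN library, their ratios to LN are not independent of each other.

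The question behind obese against lean adipose Tregs was what differs in adipose Tregs when the mouse is obese. The 40 genes summed to 11042 CPM in obese and 3359 CPM in lean adipose Tregs, 3.29-fold higher (3.24 to 3.33). Of the 40, 32 were higher in obese adipose by 2-fold or more, and the other 8 were within 2-fold. Among the 32 were 5 genes with no lean value, which was counted as 0: Trem2, Fcgr1, Ly86, Clec4a3 and Igsf6. Another 4, Spi1, Fcgr4, Tmem176b and Lyve1, were listed at 0 in lean adipose. Over all 14804 genes measured, 34.0% were higher by that much and 18.6% lower, and the median log2 ratio was 2.27 for the 40 genes and 0.20 for all genes. Of the 31 genes above 0 in both libraries, 29 were higher in obese adipose with a counting interval above 1 and 2, Clec4n and Retnla, were lower with an interval below 1. The median ratio of these 31 was 3.99.

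The size of the difference varied with the gene. Fcgr3 was 62.6-fold higher (42.6 to 96.2), C1qc 19.3-fold higher (17.0 to 22.0), C1qb 9.77-fold higher (9.03 to 10.6), Adgre1 9.16-fold higher (7.55 to 11.2) and Clec10a 8.25-fold higher (6.11 to 11.4). A middle group lay near the ratio of Lyz2, 5.58-fold higher (5.35 to 5.81). In it were Tyrobp (5.93-fold, 5.48 to 6.42), Fcer1g (5.76-fold, 5.37 to 6.19), Csf1r (5.65-fold, 4.76 to 6.74) and Ms4a7 (5.38-fold, 4.87 to 5.96). Apoe was 4.41-fold higher (4.21 to 4.63), Cd14 3.99-fold higher (3.74 to 4.26) and Mrc1 2.86-fold higher (2.69 to 3.03). A few genes lay near a ratio of 1. Wfdc17 was 1.19-fold higher (1.14 to 1.25), Lgals3 1.11-fold higher (1.05 to 1.17), and Retnla stood at a ratio of 0.924 (0.891 to 0.959). The lectin gene Clec4n stood at 0.833 (0.700 to 0.990). Among the 9 genes listed at 0 or without a value in lean adipose were Ly86, Tmem176b and Clec4a3, at 166, 128 and 100.4 CPM in obese adipose Tregs. Over the same libraries the T cell and Treg genes summed to 10428 CPM in obese and 9111 CPM in lean adipose Tregs, with 1 of 16 higher by 2-fold or more and 1 lower. Divided by that sum, the 40 genes were 2.87-fold higher in obese adipose.

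**Figure D2:**
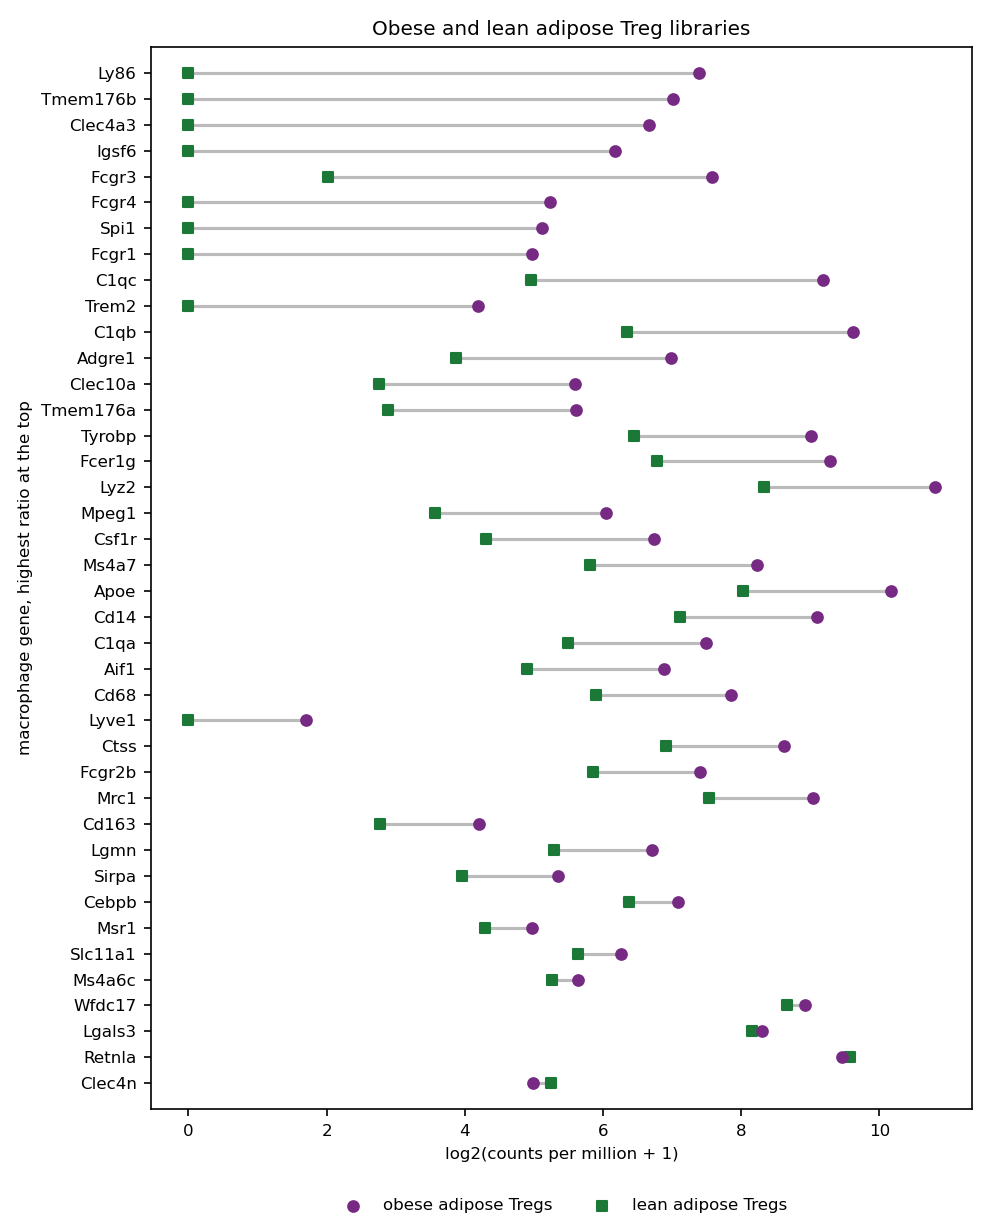
Each macrophage gene in obese (circles) and lean (squares) adipose Tregs as log2(CPM + 1), ordered by the ratio, with 0 standing for genes listed at 0 or without a value. Circles lie to the right of squares for 38 genes, and Retnla and Clec4n at the bottom are the 2 with the circle on the left.

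The 10-month Foxp3Cre adipose Tregs were also set beside lean adipose Tregs of 4 months. The libraries differ in age and, as above, in Xist and Gapdh, so age and these features cannot be told apart. The summed value was 1772 CPM at 10 months and 3359 CPM at 4 months, a ratio of 0.527 (0.517 to 0.537). Of the 40 genes, 36 passed the filter. At 10 months 22 of them were lower by 2-fold or more and 7 higher, where 32.7% and 28.5% of all 13880 genes measured were. Of the 36, 7 had no value above 0 at 10 months and 5 had none in lean adipose, so these passed only through the other library. Of the 22, Cd163, Msr1, Clec4n, Clec10a and Fcgr3 had no value at 10 months, which was counted as 0. Of the 7 higher, Trem2, Ly86 and Clec4a3 likewise had no value in lean adipose. The median log2 ratio was -1.88 for the 36 genes and -0.17 for all genes. Retnla was 81.4-fold lower at 10 months (66.1 to 101), Ms4a7 41.1-fold lower (23.8 to 77.8), Wfdc17 39.0-fold lower (31.96 to 48.1), Mrc1 7.23-fold lower (6.31 to 8.30) and Cd14 4.19-fold lower (3.70 to 4.76). Some genes did not share that direction. Lgals3 was 2.02-fold higher at 10 months (1.93 to 2.12), Mpeg1 2.20-fold higher (1.72 to 2.83) and Lyz2 1.49-fold higher (1.42 to 1.56), and Ctss stood at a ratio of 1.02 (0.939 to 1.11). Tmem176b had 81.3 CPM at 10 months and was listed at 0 in lean adipose Tregs. The 10-month Foxp3Cre library was also set against LN of 4 months, with which it shares high Xist and Gapdh. Age and tissue both differ in this pair and cannot be told apart. In the 10-month library 23 of the 40 genes were higher by 2-fold or more and 2, Ctss and Ms4a6c, lower. Over all 13187 genes measured, 34.3% were higher by that much and 29.8% lower. Of the 29 genes that passed the filter, 18 passed only through the 10-month library. The median log2 ratio was 3.37 for the 29 genes and 0.10 for all genes, and the median fold among the 11 genes above 0 in both libraries was 2.01. In that comparison Lyz2 was 68.0-fold higher (53.5 to 87.7), Lgals3 44.4-fold higher (37.2 to 53.4) and C1qb at least 182-fold higher.

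The library labelled Med23 KO against 10-month Foxp3Cre asked what loss of Med23 in Tregs does to adipose Tregs. Since Med23 itself went against the label, as given above, each direction here rests on that label. Most macrophage genes were lower in the library labelled Med23 KO. Of the 40, 30 passed the filter. Of these, 24 were lower by 2-fold or more and 3 higher, where 34.9% and 28.6% of all 13549 genes measured were. Of the 30, 16 passed only through Foxp3Cre and could only come out lower. Another 1, Fcgr2b, passed only through the library labelled Med23 KO. The count is thus no support for a difference. The median log2 ratio was -2.92 for the 30 genes and -0.15 for all genes, and the median ratio among the 13 genes above 0 in both libraries was 0.383. The 40 genes summed to 676 scaled counts in this library and 1967 in Foxp3Cre, a ratio of 0.344 (0.331 to 0.356). Lgals3 had 12.3 and 641 scaled counts and was 52.0-fold lower (40.6 to 67.8). Apoe had 1.57 and 62.6 and was 39.97-fold lower (20.1 to 93.1), and Lyz2 had 47.9 and 529.5 and was 11.05-fold lower (9.71 to 12.6). For 16 genes the library labelled Med23 KO was listed at 0. Tmem176b (0 and 90.3) was at least 154-fold lower, Tyrobp (0 and 29.1) at least 49.6-fold lower, Mrc1 (0 and 28.3) at least 48.2-fold lower and Mpeg1 (0 and 26.6) at least 45.3-fold lower.

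Against that direction, Retnla had 232 scaled counts here, against 10.4 in Foxp3Cre, 22.5-fold higher (18.1 to 28.1), and Clec4a3 had 37.2 and 10.9, 3.40-fold higher (2.65 to 4.40). Fcgr2b had 1.76 in the library labelled Med23 KO and was listed at 0 in Foxp3Cre. Ctss, with 223 and 136, was 1.64-fold higher (1.51 to 1.78). The C1q genes were lower without being at 0 throughout, with C1qb at 22.5 and 62.5 (ratio 0.360, 0.292 to 0.441), C1qc at 6.07 and 44.4 (ratio 0.137, 0.0916 to 0.197) and C1qa at 0 and 6.33 scaled counts. In this pair, of the 16 T cell and Treg genes 4 were lower by 2-fold or more and none higher, and the 7 erythroid genes summed to 8943 CPM in the library labelled Med23 KO and 1202 CPM in Foxp3Cre. Their part in the result was not tested.

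**Figure D3:**
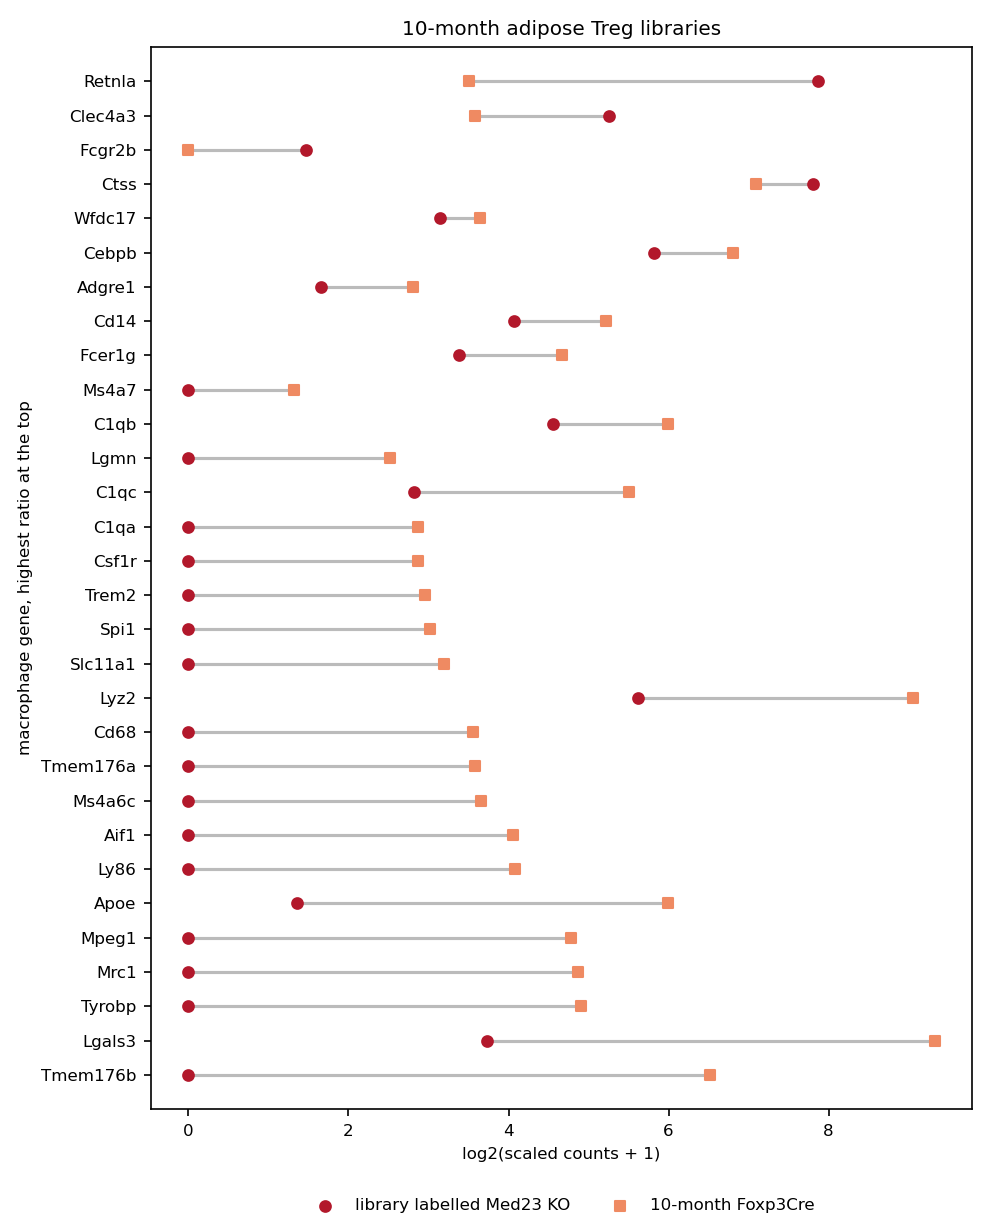
The 30 macrophage genes with 1 scaled count or more in either 10-month adipose library, in the library labelled Med23 KO (circles) and in 10-month Foxp3Cre (squares), as log2(scaled counts + 1) and ordered by the ratio. Circles lie to the right of squares for Retnla, Clec4a3, Fcgr2b and Ctss, and to the left for the other genes.

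The proportions between macrophage genes differed from library to library, which is visible in reads of the same library and so does not depend on scaling. For each read of Lyz2 there were 4.85 reads of Retnla in the library labelled Med23 KO (4.22 to 5.59), 0.0195 in 10-month Foxp3Cre (0.0157 to 0.0241), 0.393 in obese adipose (0.381 to 0.406) and 2.37 in lean adipose Tregs (2.27 to 2.48). For each read of C1qa there were 7.02 reads of C1qc in 10-month Foxp3Cre (5.28 to 9.49), 3.26 in obese adipose (3.06 to 3.47) and 0.680 in lean adipose Tregs (0.578 to 0.799). Neither set of intervals overlaps between libraries. Fcgr3 had 1.13 reads for each read of Fcgr2b in obese adipose (1.05 to 1.22) and 0.0535 in lean adipose Tregs (0.0346 to 0.0794). The adaptor pair differed less, with 0.821 reads of Tyrobp for each of Fcer1g in obese (0.786 to 0.857) and 0.798 in lean adipose Tregs (0.724 to 0.880). In 10-month Foxp3Cre that value was 1.19 (0.986 to 1.43), while in the library labelled Med23 KO Tyrobp was listed at 0 beside 48 reads of Fcer1g.

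A further 50 macrophage genes outside the list gave a similar order of sums, with only LN and the library labelled Med23 KO changing places. The sum was 815 CPM in the library labelled Med23 KO, 2004 in 10-month Foxp3Cre, 6911 in obese adipose, 2975 in lean adipose and 888 in LN Tregs. In obese against lean adipose 32 of them were higher by 2-fold or more and 3 lower, with 44 measured. Over all genes measured in this pair, 34.0% were higher by that much and 18.6% lower. Of the 50, 43 stood at 1 or more in obese and 32 in lean adipose, so some passed the filter through obese adipose alone. In the library labelled Med23 KO against 10-month Foxp3Cre 2 were higher by 2-fold or more and 23 lower, with 33 measured. Pf4, a platelet factor gene that adipose macrophages also use, had 915 scaled counts in obese and 282 in lean adipose Tregs and was listed at 0 in LN. MHC class II genes, which macrophages, dendritic cells and B cells use, summed to 8574 CPM in obese adipose, 1815 in lean adipose and 483 in LN Tregs. Genes known from lipid-associated macrophages differed less, with 1578 CPM in obese adipose, 1054 in lean adipose and 467 in LN Tregs.

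Other cell types moved with some of these libraries too. The 15 dendritic cell genes summed to 136 CPM in obese adipose, 135 in lean adipose and 211 in LN Tregs, but most of the genes measured did not follow this sum. In obese against lean adipose 8 of the 11 measured were higher by 2-fold or more and 3 lower, with a median log2 ratio of 1.69. Over all 14804 genes measured in this pair, 34.0% were higher by that much and 18.6% lower. Of the dendritic cell genes, 10 stood at 1 or more in obese adipose and only 5 in lean adipose. Many of the 11 thus passed the filter through obese adipose alone. Itgae, which T cells also use, held most of the LN sum, at 31.9 CPM in obese adipose, 0 in lean adipose and 177 in LN Tregs. Irf8 held most of the lean sum, at 19.9, 89.9 and 2.27 CPM. Fibroblast and mesothelial genes summed to 15.9 CPM in obese and 1099 CPM in lean adipose Tregs, the opposite order. All 10 measured were lower in obese adipose by 2-fold or more, where 18.6% of all genes measured were. Only 5 of these 10 stood at 1 or more in obese adipose, so the others passed the filter through lean adipose alone. The 9 adipocyte genes summed to 310.0 CPM in obese adipose, where Fabp4, which macrophages also use, had 294 of it, and to 13.7 CPM in lean adipose Tregs. Granulocyte and mast cell genes stayed between 1.87 and 16.8 CPM in all 5 libraries, with S100a8 and S100a9 at no value above 0. B cell genes summed to 198 CPM in obese and 58.1 in lean adipose Tregs, and endothelial genes to 97.0 and 68.8 CPM. CD8 T and NK cell genes summed to 399.8 CPM in obese and 311 CPM in lean adipose Tregs, of which Nkg7 had 294 and 306 CPM. Of the 7 measured, 6 were higher in obese adipose by 2-fold or more and none lower, with a median log2 ratio of 3.73. Only 2 of the 12 genes stood at 1 or more in lean adipose, so most of the 7 passed the filter through obese adipose alone. In this pair genes of the list moved with the macrophage genes. In the 10-month pair the sum did not, at 293 CPM in the library labelled Med23 KO and 135 CPM in Foxp3Cre. Of the 6 measured there, 2 were higher by 2-fold or more and 3 lower, where 28.6% and 34.9% of all genes measured were. Their part in the results on macrophage genes was not tested.

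**Figure D4:**
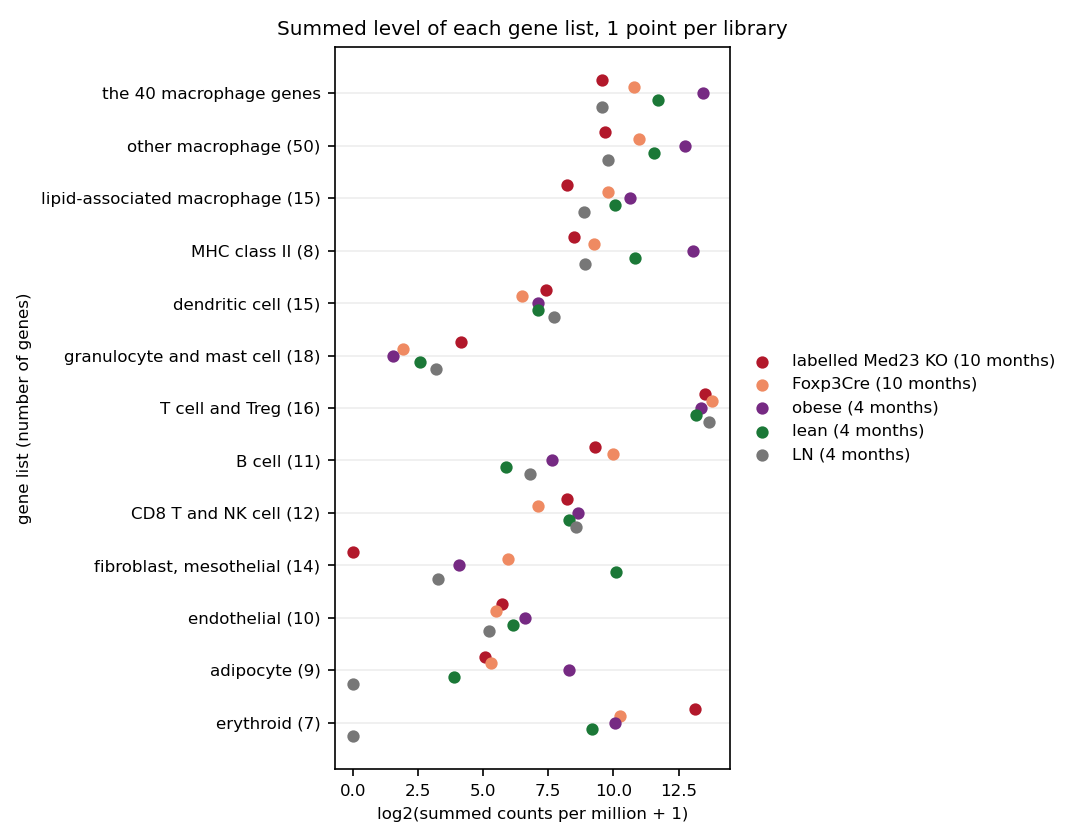
Summed level of each gene list (rows, with the number of genes) in the 5 libraries, 1 point per library, as log2(summed CPM + 1). The obese library lies farthest right for the 40 macrophage genes (11042 CPM) and the 50 others (6911 CPM). The sums of the T cell and Treg genes lie closer together (9111 to 14069 CPM), although single genes of that list differ between libraries.

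Ligands known to act on macrophages were listed in the Treg libraries as well. Il10, the gene of a cytokine that Tregs make and that restrains macrophages, had 65.7 CPM in the library labelled Med23 KO, 1746 in 10-month Foxp3Cre, 587 in obese adipose, 1058 in lean adipose and 78.1 in LN Tregs. Ccl2, which encodes a chemokine that attracts monocytes, had 116, 53.9, 849, 1254 and 13.6 CPM in these libraries. Csf1, the gene of a Csf1r ligand, had 0, 21.9, 4.94, 61.4 and 12.3 CPM, and Il34, the other ligand gene, had no value in any library. Of the 9 ligand genes listed, 6 were measured in obese against lean adipose Tregs. Of these, 3 were lower in obese adipose by 2-fold or more and none higher, where 18.6% and 34.0% of all genes measured were. Csf1 was among these 3, while Il10 and Ccl2 were within 2-fold.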

How the data were processed

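Tregs were sorted and their messenger RNA was sequenced on an Illumina HiSeq2000 from libraries made with a TruSeq kit from 3 ug of total RNA, per the labels' protocols. Bowtie2 2.0.6, TopHat2 2.0.9 and build mm8 are named in the submitters' processing notes; the counter, annotation, strand setting and scaling are not stated there. The 3 deposited tables hold a scaled read count per gene and library, the signal used here, and the authors' log2 fold change. Each nonzero value is a multiple of the worth of 1 read in its library (to within 4.07e-10 read), and values under 1 are listed as 0. These are normalized values without replicates, so no count model was fitted, although the design foresaw counts as one possibility.

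Symbols came from a GENCODE M21 table, which matched 98.8% to 99.3% of IDs; the ID with the higher value was kept for a repeated symbol. Ratios are log2((value + 1)/(value + 1)), within a table as deposited and across tables as CPM, over genes at 1 or more in either library; 2-fold is a size threshold. Folds of single genes use the listed values. A gene without a value was counted as 0 in sums and log2 ratios, and what sets it apart from a listed 0 is not given. Intervals are 95% Clopper-Pearson intervals on reads, conditional on the summed reads for ratios; reads may be PCR copies, so intervals cover counting error only. Reads behind a listed 0 were taken from the authors' log2 fold change, where 0.5 stood in place of no read. Exon lengths and shared words of 50 bases came from GENCODE M21. The 40 genes and all lists were chosen with earlier results of these data known. Named genes were the 40, Med23, Foxp3, Cd3e and up to 3 genes of each other list; Csf1 and Il34 were named for Csf1r, and Gapdh, Xist, Ddx3y, S100a8 and S100a9 after their values were seen. Calculations, tested on simulated data, used pandas 2.3.3, scipy 1.17.1 and numpy 2.4.6 in Python 3.11.15; figures used matplotlib 3.10.9. Alternatives were the pseudocount, the filter, the scaling, centring and the set of genes.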

Additional observations from a re-analysis of the deposited data

Results flagged for a closer look

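Of the 40 genes, 2 lay on opposite sides of LN in the lean and the obese adipose library, and this difference was not tested. Tmem176a had a log2 ratio to LN of 2.48 in obese adipose and -0.19 in lean adipose Tregs. Its ratio in lean adipose, 0.857 (0.588 to 1.24), had a counting interval that spans 1. Ms4a6c had a log2 ratio to LN of 0.10 in obese adipose and -0.26 in lean adipose Tregs, and its transcripts share sequence with other genes. For Ms4a6c the ratio in obese adipose, 1.07 (0.925 to 1.24), likewise had an interval that spans 1.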

How the results depend on the processing

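With 1 library per group no replicate could be left out. No paired analysis was possible because each group has 1 library. Of 84 recounts of genes at least 2-fold higher or lower under another pseudocount, filter, centring, scaling or gene set, 81 stayed within 1.5 times the count given. The others were genes lower in lean adipose than in LN (0 among the 29 restricted genes, without Ctss), lower in obese adipose than in LN (1, Ctss, with ratios centred on the all-gene median of 0.44) and lower in 10-month Foxp3Cre than in LN (1 among the 29). Of 1066 recomputed ratios 1049 stayed past 2-fold, but the 2 changes of filter leave each ratio as it was. No gene past 2-fold changed its direction, which is no support for the directions. Neither a pseudocount nor a filter can reverse a ratio, and centring shifted the log2 ratios by 0.44 at most. The lower counts, single genes and the sums without Ctss were added after the data were seen.

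Ratios of the summed values all kept their direction. With CPM in place of deposited values within a table, and deposited values (obese and lean adipose through their shared LN library) in place of CPM across tables, they were 4.51 for lean adipose against LN, 14.8 for obese adipose against LN, 3.22 for obese against lean adipose, 0.424 for the library labelled Med23 KO against Foxp3Cre, 0.615 for 10-month Foxp3Cre against lean adipose and 2.52 for 10-month Foxp3Cre against LN. In the same order they were 34.8, 110, 3.22, 0.434, 0.333 and 12.8 for the 29 restricted genes alone. Without the highest gene of each pair (Retnla, Lyz2, Lyz2, Lgals3, Retnla and Ctss) they were 3.16, 11.1, 3.05, 0.5004, 0.678 and 11.8. Divided by the summed T cell and Treg genes they were 6.42, 18.4, 2.87, 0.506, 0.342 and 2.19. Without Ctss, the ratios to LN were 20.9 in lean adipose, 67.5 in obese adipose and 11.8 in 10-month Foxp3Cre. For the 29 restricted genes the share of reads was 0.0414% in the library labelled Med23 KO, 0.0772% in 10-month Foxp3Cre, 0.746% in obese adipose, 0.232% in lean adipose and 0.00603% in LN. Sums to LN thus depend on Ctss. Values under 6 to 10 reads are listed as 0, which limits what can be said of genes near that level.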
